A study of Homo sapiens with 4 samples.

Results

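Messenger RNA of 39 genes of glucose metabolism was compared between MHCC97H cells with and without knockdown of UBXN1. The genes were taken by symbol from a list of pathway members that uses no measured threshold, but was chosen with earlier results of these data known. It covers glucose uptake, glycolysis and its control by fructose 2,6-bisphosphate, lactate formation and export, pyruvate dehydrogenase control, the pentose phosphate pathway and gluconeogenesis. The genes are 39 of the 61541 gene IDs counted, and 36 of them passed the filter on low counts, among 16863 genes tested. MHCC97H is an established human hepatocellular carcinoma (HCC) line, a cancer of hepatocytes, and UBXN1 is a cytosolic protein with a ubiquitin-binding UBA domain and a UBX domain that binds the ATPase VCP.

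RNA was sequenced with an mRNA library kit in 2 libraries of cells carrying a control shRNA (shCon) and 2 of cells carrying an shRNA against UBXN1 (shUBXN1), a short hairpin RNA that lowers its target mRNA. No other treatment, time or genotype separates the groups in the labels. By the study's methods the hairpins were delivered with a lentiviral pLKO.1 vector, so both groups would be infected cell populations, although the series text speaks of transfection, and which UBXN1 hairpin the sequenced cells carried is not given in the sources used here. With 1 knockdown group, an effect of the UBXN1 hairpin on other mRNAs cannot be told apart from the loss of UBXN1. The labels do not say that the libraries come from separate cultures, so the p-values measure the spread between these libraries, which may be technical.

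Glycolysis breaks glucose down to pyruvate in the cytosol, and pyruvate is then reduced to lactate and exported or oxidized in mitochondria. The pentose phosphate pathway branches off at glucose 6-phosphate and yields NADPH and ribose 5-phosphate for biosynthesis. Hepatocytes also run the pathway backwards to make glucose, and liver cancers commonly exchange the liver forms of these enzymes for forms found in fetal and proliferating cells.

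The libraries held 23373700 to 27380508 counts, and the 39 genes took 1.91% to 2.0% of them. UBXN1 measured 67.1 and 77.3 CPM (counts scaled to the library total after TMM adjustment) in the 2 shCon libraries and 16.8 and 18.5 CPM in the 2 shUBXN1 libraries. The log2 fold change of UBXN1 was -2.03 (SE 0.0963, adjusted p = 9.98e-10, quasi-likelihood test of edgeR, Benjamini-Hochberg adjusted over the 16863 genes tested, which gives every adjusted p below unless another is named). Mitochondrially encoded genes took 7.43% and 8.27% of the counts in the shUBXN1 libraries and 5.28% and 5.59% in the shCon libraries. At an adjusted p of 0.05, 28.0% of all genes tested rose and 28.2% fell. Of 11 hepatocyte and HCC markers, summed at 4412 and 4581 CPM in shCon and 3471 and 4064 CPM in shUBXN1, 2 rose and 6 fell. KRT8 and KRT18, keratins of hepatocytes, carried most of that sum, whereas ALB (albumin) stood at 18.0 and 17.2 CPM in shCon and 4.20 and 4.78 CPM in shUBXN1, and GPC3 had no counts. Of 12 fibroblast, endothelial and blood cell markers, summed at 150.2 and 156.6 CPM in shCon and 135.0 and 133.7 CPM in shUBXN1, 2 rose (COL1A1 and PECAM1) and 3 fell (DCN, LUM and CD68). CD68 (70.5 to 88.3 CPM), PECAM1 (33.2 to 43.0 CPM) and LUM (13.9 to 32.3 CPM) made up most of that sum, while the T cell gene CD3E had no counts and the leukocyte gene PTPRC was at or below 0.171 CPM. The part of the mitochondrial share and of these markers in the results below was not tested. In bulk RNA, fewer cells of a type and less RNA per cell cannot be told apart.

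Knockdown of UBXN1 moved the genes of glucose metabolism in both directions. Isozymes passed in opposite directions among the phosphofructokinases, the PFKFB enzymes and the lactate dehydrogenase subunits. In the other isozyme groups they rose together or not all of them passed. PDK4, ENO2 and SLC16A3 rose at least 2-fold, and RPIA, PFKFB3 and LDHB fell at least 2-fold. SLC2A3 and HK2 also rose at least 2-fold, but from mean shCon levels of only 0.585 and 0.619 CPM. Both lost their call under some of the alternatives given below. The abundant glycolytic enzymes GAPDH, PKM, ENO1, ALDOA, TPI1 and PGAM1 did not pass the test. Of the 5 pentose phosphate genes, 3 fell and none passed with a rise, where 28.2% of all genes tested fell and 28.0% rose.

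Of the 36 genes tested, 15 passed an adjusted p of 0.05 with a rise (41.7%, against 28.0% of all genes tested), 11 passed with a fall (30.6%, against 28.2%), and 10 did not pass. At a fold change of 2 with an unadjusted p under 0.05, the thresholds of the study's methods, 5 were higher (13.9%, against 11.8% of all genes tested) and 3 were lower (8.33%, against 6.09%). The shares at 2-fold were therefore near those of all genes. The median log2 fold change was -0.02 over the 36 genes and 0.016 over all genes tested, and the median size of the change was 0.48 and 0.44. These genes were also more highly expressed than most, with a median of 7.04 log2 CPM against 4.17, and of the 6252 genes tested with a mean above 5 log2 CPM, as 27 of the 36 had, 68.7% passed the adjusted p in either direction. In 30 of the 36 genes the values of the 2 groups did not overlap, as in 78.0% of all genes tested.

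**Figure D1:**
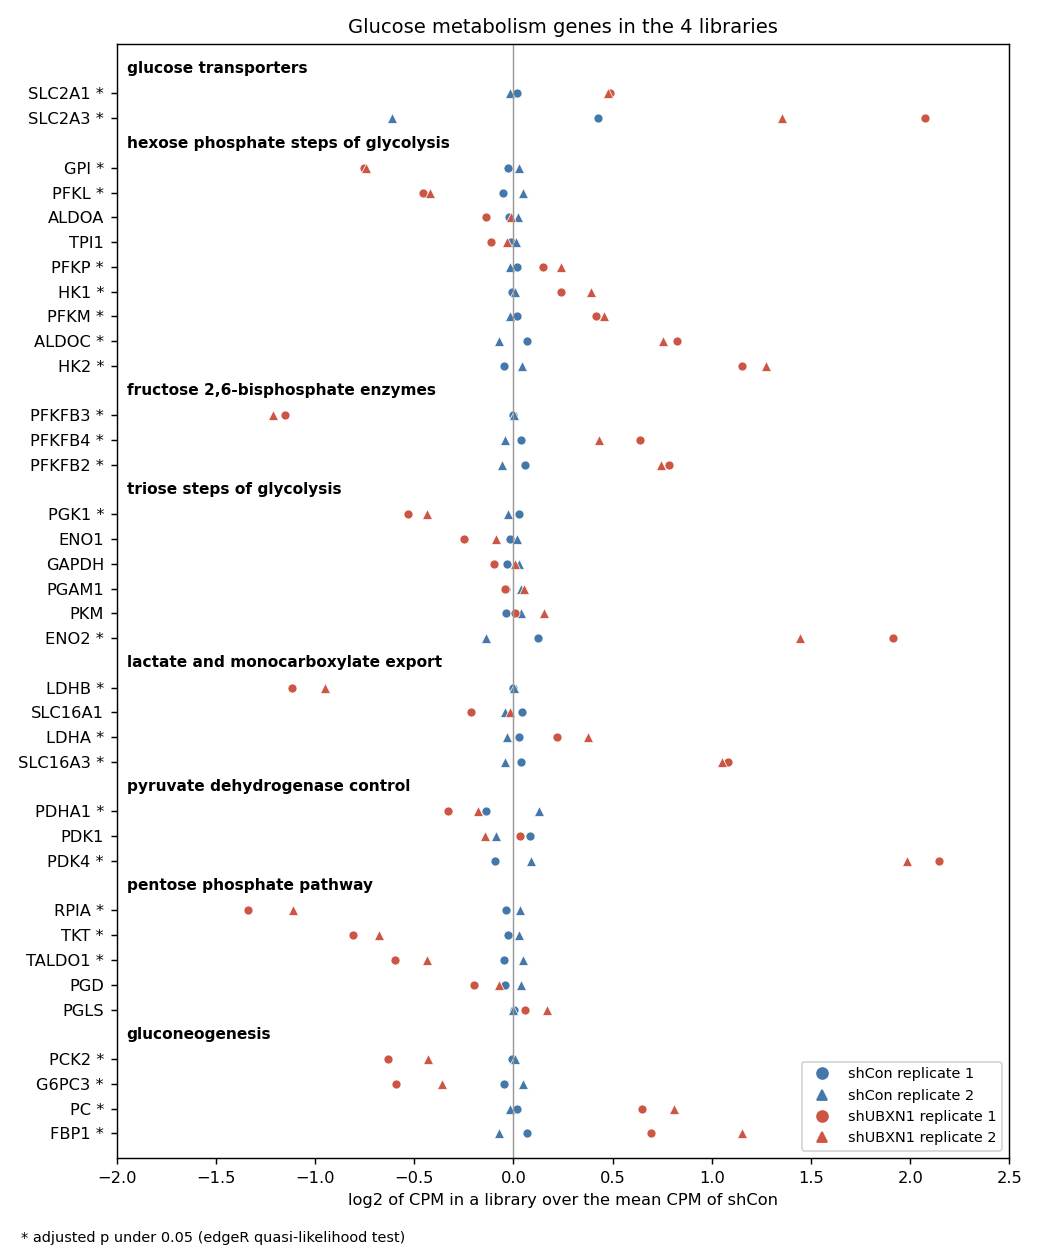
Level of each of the 36 genes in every library, as log2 of its CPM over the mean CPM of the 2 shCon libraries, with genes grouped by role. Blue marks shCon and red shUBXN1, circles are replicate 1 and triangles replicate 2, and a star marks an adjusted p under 0.05. PDK4 lies farthest to the right and RPIA farthest to the left, while GAPDH, PGAM1, PKM, ALDOA, TPI1 and PDK1 have red points on or beside the blue ones.

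Both glucose transporters with enough counts to test rose. SLC2A1, which encodes the widespread transporter GLUT1, measured 119.6 and 116.4 CPM in shCon and 165.3 and 164.1 CPM in shUBXN1. This was a 1.39-fold rise (log2 fold change 0.48, SE 0.0713, adjusted p = 5.15e-05). SLC2A3, for the high-affinity transporter GLUT3, was near the limit of detection, with 0.788 and 0.383 CPM in shCon and 2.46 and 1.5 CPM in shUBXN1, and its log2 fold change was 1.74 (SE 0.462, adjusted p = 0.00528). The value for SLC2A3 was 2.36 without shCon replicate 1 and 1.33, with an adjusted p of 0.0640, without shUBXN1 replicate 1, and reads of its near-identical relatives could not be separated, since counts on its pseudogenes reached 40.9% of its own in 1 library. SLC2A2, for GLUT2, the transporter of normal hepatocytes, had no counts in any library, which allows at most 0.128 CPM in the shallowest library (3 counts, counting error only).

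Among the enzymes that carry glucose to triose phosphates, 5 rose, 2 fell and 2 did not pass, beside 28.0% of all genes tested that rose and 28.2% that fell. HK1, a hexokinase that traps glucose as glucose 6-phosphate, measured 219.8 and 222.6 CPM in shCon and 260.9 and 290.4 CPM in shUBXN1, with a log2 fold change of 0.32 (SE 0.0776, adjusted p = 0.00301). HK2, the hexokinase commonly induced in liver cancer, was barely expressed, with 16 and 15 counts in shCon and 34 and 35 in shUBXN1 (log2 fold change 1.21, SE 0.433, adjusted p = 0.0284). Per length, HK1 stood at a mean of 115.7 TPM (counts per base of gene length, scaled to the library) in shCon and 149.9 TPM in shUBXN1, against 0.221 and 0.532 TPM for HK2. The rise of HK1 had an adjusted p of 0.102 without shCon replicate 2. The rise of HK2 did not pass with DESeq2 (adjusted p = 0.108) or with limma on log2(TPM + 1) (0.33, adjusted p = 0.0540). It was also not called when any 1 of the 4 libraries was left out (log2 fold change 1.13 to 1.26). GPI, which turns glucose 6-phosphate into fructose 6-phosphate, fell from 498.6 and 517.0 CPM to 301.0 and 303.4 CPM, a log2 fold change of -0.75 (SE 0.0750, adjusted p = 1.18e-06).

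The 3 phosphofructokinase genes, whose products catalyse the committed step of glycolysis, did not move together. PFKL, the liver form, fell from 92.5 and 99.3 CPM to 69.9 and 71.6 CPM (log2 fold change -0.44, SE 0.0746, adjusted p = 1.79e-04). PFKM, the muscle form, rose from 82.8 and 80.6 CPM to 108.9 and 112.1 CPM (0.44, SE 0.0719, adjusted p = 1.35e-04). The platelet form PFKP was the most abundant of the 3 per length, at 242.0 TPM in shCon and 288.0 TPM in shUBXN1, and its log2 fold change of 0.19 had an adjusted p of 0.0406. The call for PFKP was lost without shCon replicate 1, shCon replicate 2 or shUBXN1 replicate 2 (adjusted p = 0.167, 0.454 and 0.0574) and after correction for GC content (0.115).

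The aldolases differed as well. ALDOA, the dominant aldolase, measured 1129 and 1163 CPM in shCon and 1042 and 1136 CPM in shUBXN1, with a log2 fold change of -0.07 (adjusted p = 0.485), and it reached -0.15 with an adjusted p of 0.0221 without shUBXN1 replicate 2. ALDOC, a minor brain-type aldolase, rose from 22.7 and 20.6 CPM to 38.3 and 36.4 CPM (0.79, SE 0.0932, adjusted p = 6.04e-06). By the GENCODE annotation, 42.8% of the exon bases of ALDOA are shared with an overlapping gene on the same strand, ENSG00000285043, which itself went from 1935 and 1793 counts to 1113 and 836, so the division of reads between them is uncertain. TPI1, which interconverts the triose phosphates, measured 857.0 and 872.8 CPM in shCon and 799.2 and 846.8 CPM in shUBXN1 and did not pass (-0.07, adjusted p = 0.473).

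The bifunctional PFKFB enzymes make and remove fructose 2,6-bisphosphate, the activator of phosphofructokinase, and their genes moved in opposite directions. PFKFB3, the form with the highest kinase over phosphatase activity, measured 169.2 and 169.7 CPM in shCon and 76.2 and 73.1 CPM in shUBXN1, so that the groups lay far apart and the replicates close together. Its log2 fold change was -1.18 (SE 0.0728, adjusted p = 1.05e-08), a level of 0.441 times that of shCon. PFKFB2, the heart form, rose from 41.2 and 38.1 CPM to 68.2 and 66.3 CPM (0.76, SE 0.0787, adjusted p = 1.58e-06). PFKFB4 rose from 11.4 and 10.8 CPM to 17.3 and 15.0 CPM (0.54, SE 0.126, adjusted p = 0.00230). PFKFB3 still made up most of the TPM of the 3 genes, and their sum fell from 167.5 and 161.8 TPM to 103.1 and 91.1 TPM.

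The enzymes of the later steps of glycolysis included the most abundant of the 39, and apart from PGK1 and ENO2 they did not pass. GAPDH, the glyceraldehyde 3-phosphate dehydrogenase that also served the study as its qRT-PCR normalizer, measured 4078 and 4255 CPM in shCon and 3897 and 4192 CPM in shUBXN1. The 2 groups overlapped, with a log2 fold change of -0.04 (SE 0.0956, adjusted p = 0.728) that was -0.12 at its lowest and 0.041 at its highest under the alternatives. GAPDH held 20.3% to 21.6% of the counts of the 39 genes. The primers the study lists for it are given here because they show which stretch of the mRNA that normalizer reads:
human GAPDH forward: catgagaagtatgacaacagcct
human GAPDH reverse: agtccttccacgataccaaagt
On GRCh38 the forward primer lies at chr12:6537182-6537204 in exon 6 of 9 and the reverse primer at chr12:6537365-6537386, on the minus strand, in exon 7 of 9. Both sites are coding sequence of GAPDH (ENSG00000111640), and the product in the transcript is 113 bases. The forward primer matched the genome exactly at 3 other places and the reverse primer at 6, and 12 annotated transcripts of 3 genes, 10 of them of GAPDH, held both.

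PGK1, the first ATP-forming enzyme of glycolysis, fell from 1268 and 1219 CPM to 860.6 and 919.6 CPM (log2 fold change -0.48, SE 0.0833, adjusted p = 2.02e-04). PGAM1, a phosphoglycerate mutase, had 248.5 and 261.4 CPM in shCon and 247.4 and 264.6 CPM in shUBXN1, and its log2 fold change of 0.006 (adjusted p = 0.953) was the closest to 0 among the 36. PKM, which encodes the pyruvate kinase of cancer cells, measured 3512 and 3695 CPM in shCon and 3629 and 4002 CPM in shUBXN1 and did not pass (0.08, adjusted p = 0.491). It passed without shUBXN1 replicate 1 (0.15, adjusted p = 0.0156) and with scaling to total counts (0.17, adjusted p = 0.0202). PKLR, the pyruvate kinase of normal hepatocytes, had between 1 and 7.29 counts per library and was not tested.

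The enolases separated. ENO1, the common form, had 1887 and 1937 CPM in shCon and 1611 and 1802 CPM in shUBXN1. Its log2 fold change of -0.16 did not pass (adjusted p = 0.138), but the call changed in 4 of 12 alternatives. ENO1 passed with DESeq2 (adjusted p = 0.0375) and without a filter on low counts (-0.17, adjusted p = 0.0392). Without shUBXN1 replicate 2 its value was -0.26. ENO2, the neuron-type enolase, rose from 27.9 and 23.2 CPM to 96.3 and 69.4 CPM, a log2 fold change of 1.70 (SE 0.132, adjusted p = 9.90e-08). The 2 shUBXN1 libraries differed from each other in ENO2 by more than the shCon libraries did, yet both lay above them. On GRCh38, ENO2 (chr12:6913745-6923698) lies in the same region as TPI1 (chr12:6867119-6870948) and GAPDH (chr12:6534512-6538374), neither of which passed.

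At the end of the pathway, the lactate dehydrogenase subunits moved in opposite directions. LDHA, the subunit that favours the making of lactate, measured 892.3 and 855.1 CPM in shCon and 1016 and 1133 CPM in shUBXN1 (log2 fold change 0.30, SE 0.0859, adjusted p = 0.00853). LDHB, the subunit that favours the use of lactate, fell from 1279 and 1288 CPM to 591.3 and 665.5 CPM (-1.03, SE 0.0867, adjusted p = 2.12e-07). The call for LDHA was lost without shCon replicate 2 (0.25, adjusted p = 0.30). An overlapping gene on the same strand shares 33.4% of the exon bases of LDHB but held no more than 12.2 counts in any library.

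In TPM, LDHA was 28.3% and 27.3% of the LDHA and LDHB sum in shCon and 49.3% and 49.1% in shUBXN1. The log2 ratio of LDHA to LDHB rose by 1.33, from -1.38 ± 0.0502 to -0.05 ± 0.0095 (mean ± SD, n = 2 per group), with an exact permutation p of 0.333, the smallest that 2 libraries against 2 can give. The lactate exporters also shifted. SLC16A3, which encodes the exporter MCT4, rose from 173.9 and 164.6 CPM to 358.3 and 350.2 CPM (log2 fold change 1.07, SE 0.0746, adjusted p = 3.59e-08). SLC16A1, for the two-way carrier MCT1, had 61.2 and 57.6 CPM in shCon and 51.3 and 58.6 CPM in shUBXN1 and did not pass (-0.11, adjusted p = 0.268), though it did without shUBXN1 replicate 2 (-0.23, adjusted p = 0.0195).

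**Figure D2:**
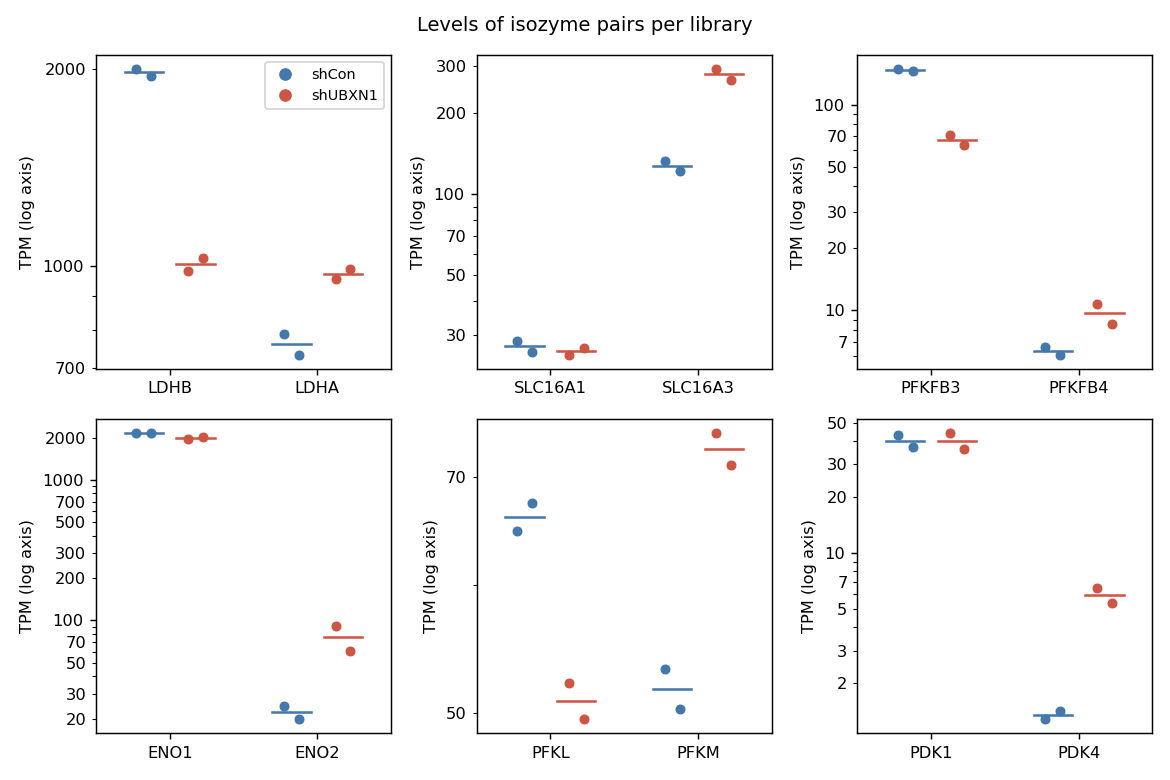
TPM, on a log axis, of 6 pairs of related genes in each library, with shCon in blue and shUBXN1 in red. Points are libraries and bars are group means. LDHB fell to near the level of LDHA, PFKL and PFKM changed order, and in the pairs of ENO1 with ENO2, SLC16A1 with SLC16A3 and PDK1 with PDK4 it was the second gene that moved by at least 2-fold.

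Ratios within a library do not depend on how the libraries are scaled to each other, and 12 of 14 isozyme pairs had one. In 11 of the 12 the groups did not overlap, the exception being PKLR to PKM. The levels of single genes did not overlap in 78.0% of all genes tested, and no such share was computed for ratios of other genes. The widest shift was PDK4 to PDK1, with a log2 ratio that rose by 2.12, followed by ENO2 to ENO1, which rose by 1.85, and PFKFB3 to PFKFB4, which fell by 1.72. PFKM passed from 45.1% and 42.7% of the PFKM and PFKL sum to 58.8% and 59.0% (log2 ratio higher by 0.87). SLC16A1 passed from 17.6% of the SLC16A1 and SLC16A3 sum in both shCon libraries to 8.01% and 9.24% in shUBXN1. The ratio of ALDOC to ALDOA was higher by 0.87, PFKP to PFKL by 0.63, HK2 to HK1 by 0.90 and PFKFB2 to PFKFB4 by 0.23. SLC2A3 to SLC2A1 was higher by 1.33, and by 0.84 without shCon replicate 2. An exact permutation p of 0.333 holds for each of these 11 pairs.

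The upstream bases of the 2 lactate dehydrogenase genes and the 2 enolase genes are shown as examples of pairs whose ratio shifted. Each is the stretch of 250 bases before the RefSeq transcription start on GRCh38.p14, printed 5′ to 3′ on the strand of the gene, for LDHA at chr11:18394313-18394562 (plus strand), LDHB at chr12:21657843-21658092 (minus), ENO1 at chr1:8878687-8878936 (minus) and ENO2 at chr12:6914330-6914579 (plus). Capitals mark ACGTG on either strand (read as CACGT on the other), the core letters of hypoxia response elements, including CACGTG, the E-box, which holds both:
LDHA: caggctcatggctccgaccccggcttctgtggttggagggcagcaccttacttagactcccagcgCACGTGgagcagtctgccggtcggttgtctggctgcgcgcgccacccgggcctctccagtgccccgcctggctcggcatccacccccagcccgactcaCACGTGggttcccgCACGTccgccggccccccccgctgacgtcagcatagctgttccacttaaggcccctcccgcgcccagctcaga
LDHB: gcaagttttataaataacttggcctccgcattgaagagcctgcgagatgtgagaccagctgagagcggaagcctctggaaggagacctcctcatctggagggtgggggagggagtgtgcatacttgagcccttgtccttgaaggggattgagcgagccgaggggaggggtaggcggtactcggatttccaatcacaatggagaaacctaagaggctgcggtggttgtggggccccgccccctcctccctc
ENO1: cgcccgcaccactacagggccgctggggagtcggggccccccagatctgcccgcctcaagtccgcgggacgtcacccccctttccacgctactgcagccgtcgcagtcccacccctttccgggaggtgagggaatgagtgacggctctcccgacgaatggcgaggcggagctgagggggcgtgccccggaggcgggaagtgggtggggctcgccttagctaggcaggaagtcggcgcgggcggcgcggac
ENO2: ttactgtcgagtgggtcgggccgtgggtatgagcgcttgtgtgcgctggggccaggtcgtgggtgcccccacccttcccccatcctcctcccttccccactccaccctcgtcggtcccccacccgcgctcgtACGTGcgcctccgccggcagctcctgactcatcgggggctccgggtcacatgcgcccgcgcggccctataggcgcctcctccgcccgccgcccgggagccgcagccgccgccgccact
The LDHA stretch held the letters at 3 places, 2 of them CACGTG, ENO2 at 1, and LDHB and ENO1 at none. Genes not shown went both ways. ACGTG was in a promoter of PFKFB3, which fell, and in none of PFKFB4, which rose. It was in promoters of PFKM and PFKP, which rose, and in none of PFKL, which fell. RefSeq promoters, of 250 bases before to 50 after the start, were matched for 35 of the 39 genes. ACGTG on either strand was in 24 of their 66 promoters (36.4%, against 21.4% of all 35116), and CACGTG in 10 (15.2%, against 7.26%). GCGTG, a variant core, was in 23 (34.8%, against 36.5%). Among genes with a promoter, ACGTG was found in at least 1 for 8 of the 13 that rose and 4 of the 11 that fell. For CACGTG these were 3 and 2 genes, and for GCGTG 9 and 6. No share per gene was computed over all genes, so these counts have no background beside them. All of these are letter matches and were not tested for binding.

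Among the genes of pyruvate dehydrogenase control, PDK4 showed a rise that was the largest of the 36. PDK4, a kinase that switches pyruvate dehydrogenase off, measured 2.29 and 2.60 CPM in shCon and 10.8 and 9.65 CPM in shUBXN1 (log2 fold change 2.07, SE 0.192, adjusted p = 5.79e-07). PDK1, the hypoxia-responsive kinase of the same family, had 32.0 and 28.3 CPM in shCon and 30.9 and 27.3 CPM in shUBXN1 and did not pass (-0.05, adjusted p = 0.677). Even after its rise PDK4 was 12.8% and 13% of the TPM of the pair. PDHA1, the catalytic subunit that these kinases phosphorylate, had 58.3 and 70.1 CPM in shCon and 51.0 and 56.7 CPM in shUBXN1 (-0.25, SE 0.0940, adjusted p = 0.0341). The fall of PDHA1 was -0.38 without shCon replicate 1 and -0.13 without shCon replicate 2, where it did not pass (adjusted p = 0.471), nor did it without shUBXN1 replicate 1 (0.0886), with DESeq2 (0.0644), with scaling to total counts (0.149) or with limma on log2(TPM + 1) (0.125). The antisense gene MAP3K15 overlaps 19.3% of the exon bases of PDHA1 and rose from 24.2 and 16.1 counts to 74.7 and 68.4.

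The pentose phosphate genes fell or did not pass. TKT, the transketolase of the non-oxidative branch, fell from 911.3 and 947.3 CPM to 531.1 and 581.5 CPM (log2 fold change -0.74, SE 0.0827, adjusted p = 3.46e-06). TALDO1, the transaldolase, fell from 724.3 and 774.8 CPM to 495.7 and 555.0 CPM (-0.51, SE 0.0848, adjusted p = 1.38e-04). RPIA, which makes ribose 5-phosphate, fell from 18.6 and 19.6 CPM to 7.56 and 8.84 CPM (-1.22, SE 0.129, adjusted p = 1.96e-06), the largest fall of the 36.

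The 2 members of the oxidative branch, which yields NADPH, did not pass. PGD, the second NADPH-forming enzyme, had 1073 and 1135 CPM in shCon and 960.8 and 1049.9 CPM in shUBXN1 (-0.14, adjusted p = 0.195), and it passed without shUBXN1 replicate 2 (-0.21, adjusted p = 0.00227). PGLS, the lactonase that acts before it, had 39.5 and 39.3 CPM in shCon and 41.1 and 44.3 CPM in shUBXN1 (0.11, adjusted p = 0.253). PGLS passed with scaling to total counts (0.20, adjusted p = 0.0385) and with limma on log2(TPM + 1) (0.17, adjusted p = 0.0251). After correction for GC content it turned to -0.02. The 5 genes summed to 3187 and 3265 TPM in shCon and 2467 and 2525 TPM in shUBXN1, a ratio of 0.774.

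Of the gluconeogenic genes, 2 rose and 2 fell, beside 28.0% of all genes tested that rose and 28.2% that fell. PC, the pyruvate carboxylase that starts the pathway in mitochondria and refills the citric acid cycle, rose from 152.4 and 148.9 CPM to 235.7 and 263.8 CPM (log2 fold change 0.73, SE 0.0783, adjusted p = 2.35e-06). FBP1, which reverses the phosphofructokinase step and is often silenced in liver cancer, rose from 3.56 and 3.24 CPM to 5.50 and 7.56 CPM (0.94, SE 0.224, adjusted p = 0.00256). The antisense gene PCAT7 overlaps 14.8% of the exon bases of FBP1 and went from 48.9 and 25.0 counts to 79.1 and 77.3, so with no statement on strand use, some FBP1 counts may be of PCAT7.

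PCK2, the mitochondrial phosphoenolpyruvate carboxykinase, fell from 20.4 and 20.6 CPM to 13.2 and 15.2 CPM (log2 fold change -0.53, SE 0.114, adjusted p = 0.00122). G6PC3, the widespread glucose 6-phosphatase, fell from 62.9 and 67.2 CPM to 43.1 and 50.7 CPM (-0.47, SE 0.0882, adjusted p = 3.94e-04). The antisense gene HDAC5 overlaps 23.9% of the exon bases of G6PC3. It had 553 and 566 counts in shCon and 580 and 536 in shUBXN1, so some G6PC3 counts may be of HDAC5. PCK1, the cytosolic carboxykinase of gluconeogenic liver, had no counts in any library.

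Summed per length, the 39 genes fell from 22489 and 22520.4 TPM in shCon to 21271 and 21472 TPM in shUBXN1, a ratio of 0.950 (exact permutation p = 0.333). The sums of the transporters (ratio 1.46) and of the gluconeogenic genes (1.17) were higher in both shUBXN1 libraries, and those of the PFKFB genes (0.589), lactate genes (0.790) and pentose phosphate genes (0.774) were lower. Abundant genes set such sums. Over the 4 libraries, SLC2A1 made up 99.2% of the transporter sum, PFKFB3 82.0% of the PFKFB sum and LDHB 57.6% of the lactate sum. PC made up 50.3% of the gluconeogenic sum, in which 2 genes rose and 2 fell. The sums of the upper steps of glycolysis (0.998) and of pyruvate dehydrogenase control (1.0) overlapped between the groups. That of the lower steps differed by a ratio of 1.02. These TPM sums carry no TMM adjustment, and for both parts of glycolysis the reading depended on the unit. In TMM-adjusted CPM, the shUBXN1 sums of the upper steps (2973 and 3172) lay below those of shCon (3223 and 3289). Those of the lower steps overlapped, with shUBXN1 at 10342 and 11250 CPM beside 11022 and 11390 CPM for shCon. The part of scaling and of gene length in this was not tested. In shCon the order of levels ran from GAPDH (a mean of 6197 TPM) through PKM (3605 TPM), ENO1 (2152 TPM) and LDHB (1975 TPM) to ALDOA (1401 TPM) and TALDO1 (1253 TPM). In shUBXN1, GAPDH (6263 TPM), PKM (3973 TPM) and ENO1 (1998 TPM) kept their places, ALDOA (1386 TPM) came before LDHB (1006 TPM), and the values of LDHA (972.7 TPM) overlapped those of LDHB and of TPI1 (974.7 TPM).

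**Figure D3:**
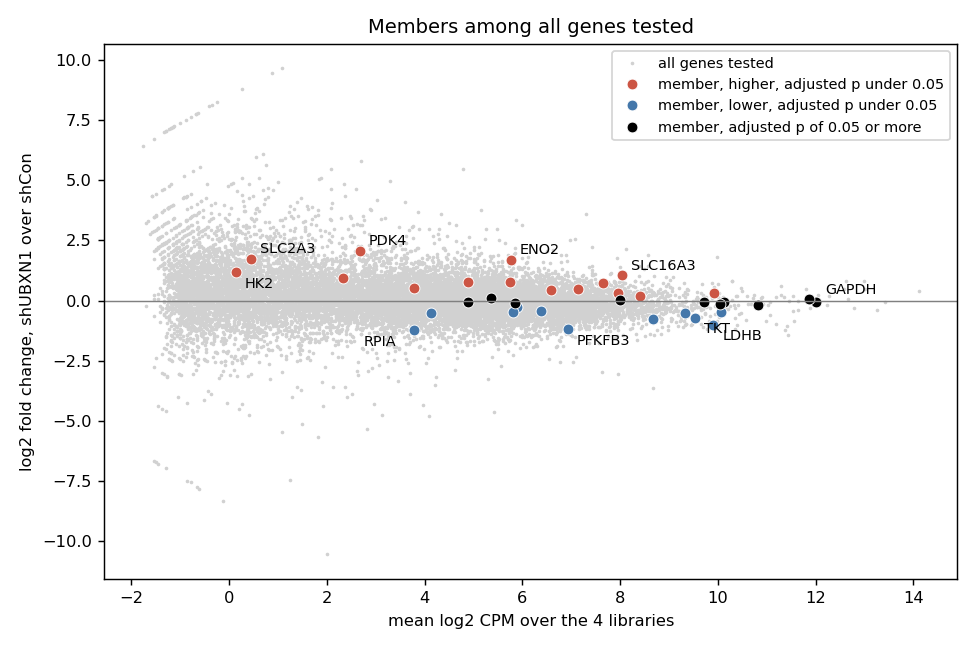
Log2 fold change of all 16863 genes tested (grey) against their mean log2 CPM, with the 36 members of the list in red (higher), blue (lower) or black (adjusted p of 0.05 or more). The members lie within the band of the other genes, toward the side of high expression, from -1.22 for RPIA to 2.07 for PDK4.

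The other genes of these pathways changed in both directions as well. Of 72 further genes, 49 could be tested, 18 rose, 17 fell and 14 did not pass, beside 28.0% of all genes tested that rose and 28.2% that fell, and the median log2 fold change was 0.11. The largest rises were in ENO3, the muscle enolase (1.80 and 1.45 CPM in shCon, 13.4 and 10 CPM in shUBXN1, log2 fold change 2.84), SLC2A6, a lysosomal hexose transporter (11.1 and 11.7 to 41.4 and 42.4 CPM, 1.88), and PDK2, a further pyruvate dehydrogenase kinase (7.28 and 6.73 to 22.1 and 21.8 CPM, 1.65). Among the largest falls were GPD1, which makes glycerol 3-phosphate (3.94 and 4.64 to 0.727 and 0.769 CPM, -2.51), and GCKR (9.30 and 7.53 to 3.31 and 2.52 CPM, -1.53).

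Genes of this longer list that touch the results above were picked after their values were seen. PDK3 rose (log2 fold change 0.86), so that 3 of the 4 pyruvate dehydrogenase kinases rose, where 28.0% of all genes tested rose. PDP2 (0.66), a phosphatase that reverses them, and PDPR (1.03), a phosphatase regulator, rose as well. The phosphatase PDP1 did not pass (0.16, adjusted p = 0.200). Of the other pentose phosphate genes, H6PD (-0.48), RPE (-0.46) and PRPS2 (-0.68) fell, while PRPS1 did not pass (0.005). The glycogen phosphorylases moved in opposite directions, with PYGL, the liver form, at 0.93 and PYGB, the brain form, at -0.97, and PYGB stayed the more abundant per length (222.1 against 37.5 TPM in shUBXN1). HKDC1, a hexokinase-like gene, stood at a mean of 131.9 TPM in shCon and 128.9 TPM in shUBXN1, near HK1, and did not pass (-0.09). G6PC1, the glucose 6-phosphatase of adult hepatocytes, had no counts.

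Regulators of these genes were read from a list of 18, of which 17 were tested, 3 rose, 7 fell and 7 did not pass, beside the same 28.0% and 28.2% of all genes. ARNT, the partner of the hypoxia-inducible factors, rose from 88.3 and 83.6 CPM to 169.3 and 180.8 CPM (log2 fold change 1.03, adjusted p = 5.75e-08). EPAS1, which encodes HIF-2α, fell from 199.7 and 195.7 CPM to 86.7 and 89.4 CPM (-1.17, adjusted p = 1.16e-08), and MYC, a driver of glycolytic genes, fell from 216.3 and 219.2 CPM to 95.2 and 116.8 CPM (-1.04, adjusted p = 2.99e-07). TXNIP, a glucose-induced inhibitor of glucose uptake, fell by 1.86 on the log2 scale from 2.14 and 1.49 CPM to 0.647 and 0.342 CPM, and its adjusted p went from 0.00346 to 0.0558 without shCon replicate 1. HIF1A (0.18, adjusted p = 0.0495) and NR3C1 (0.20, adjusted p = 0.0439) were at the threshold and did not pass without shCon replicate 1, shCon replicate 2 or shUBXN1 replicate 2, and NR3C1 did not pass with DESeq2 (0.0968) or without a filter (0.0580) either.

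Of 22 hypoxia-inducible genes outside glycolysis, 21 were tested, 14 rose, 4 fell and 3 did not pass, against 28.0% of all genes rising and 28.2% falling. This list was chosen with earlier results of these data known, so the comparison is not independent of them. A response to hypoxia was not tested. The largest rises were in ANKRD37 (log2 fold change 2.59), ANGPTL4 (2.19) and KDM3A (1.07), and the largest falls in CA9 (-2.55), HILPDA (-0.62) and ADM (-0.48). CA9 depended on the library, with 12.7 and 8.05 CPM in shCon and 3.07 and 0.427 CPM in shUBXN1, and its log2 fold change was -4.59 without shUBXN1 replicate 1 and -1.77 without shUBXN1 replicate 2. With DESeq2 CA9 did not pass (adjusted p = 0.0698). ANKRD37 was low, with 5.2 and 12 counts in shCon and 45.8 and 53.5 in shUBXN1, and its value was 2.01 without shCon replicate 1 and 3.42 without shCon replicate 2.

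**Figure D4:**
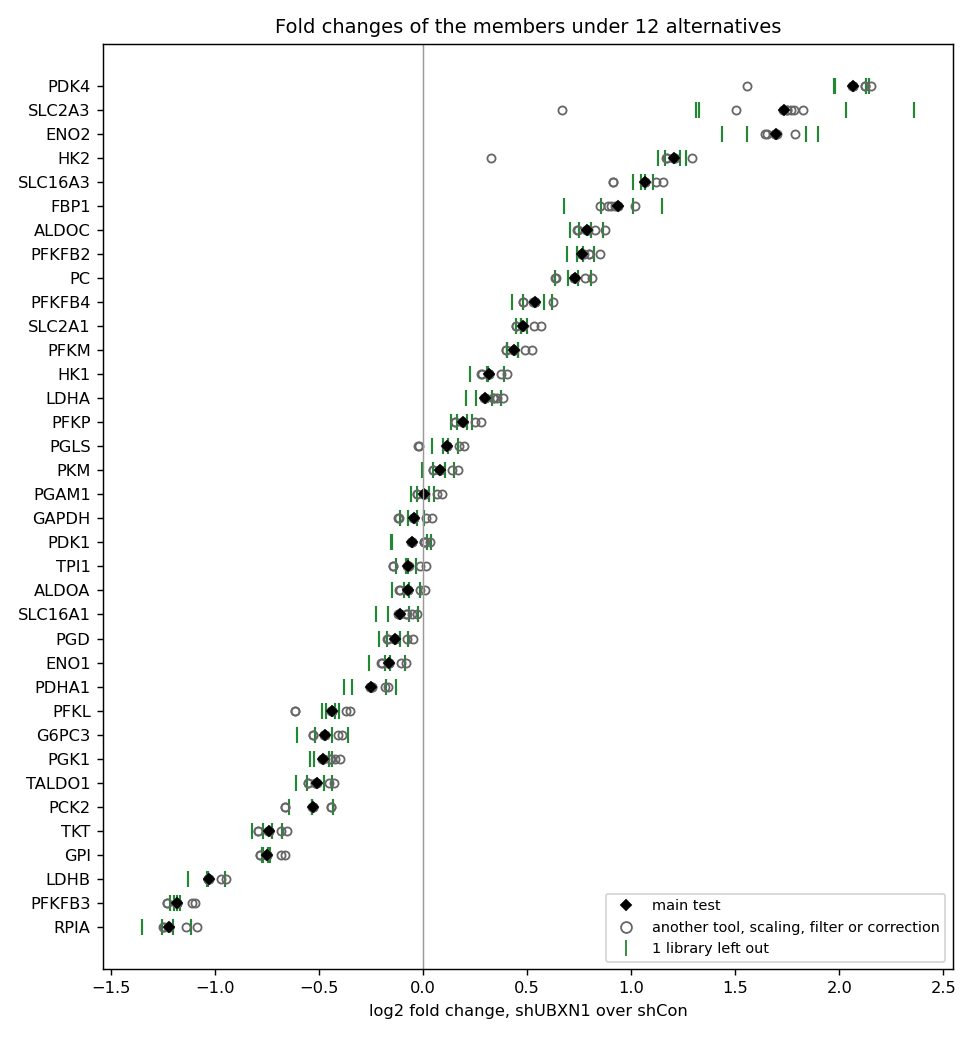
Log2 fold change of each of the 36 genes in the main test (black diamonds), under 8 alternatives of tool, scaling, filter or correction (open circles) and with 1 library left out (green ticks). PDK4, ENO2, SLC16A3, LDHB, PFKFB3 and RPIA stay far from 0 throughout, SLC2A3 and HK2 have 1 open circle far to the left, from limma on log2(TPM + 1), and the genes crossing 0 are among those that did not pass the main test.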

How the data were processed

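RNA from MHCC97H cells was sequenced in 2 shCon and 2 shUBXN1 libraries, grouped by the sample titles. The authors deposited expected counts (partly fractional, without normalization) and a length for each gene. The submitters' processing notes name HISAT2 2.0.4, StringTie 1.3.0 and GRCh37, and the study's methods name GRCh38. The counting step, its annotation release and its use of strand are not given in the sources used here. The deposited table holds no coordinates, and those printed come from GENCODE 44 and RefSeq on GRCh38. Of 61541 gene IDs, 61369 (99.7%) had a symbol.

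Counts were rounded, filtered with filterByExpr, scaled by TMM and tested with glmQLFTest in edgeR 4.0.16 under R 4.3.3, with no block. The study tested with limma, which was run as an alternative (limma 3.58.1 on log2(TPM + 1), a scale that understates changes of low genes), as was DESeq2 1.42.0. A standard error is the log2 fold change divided by the root of the F statistic. CPM are TMM-scaled, and TPM were computed from the deposited expected counts and lengths. Isozyme ratios were compared by 2-sided exact permutation tests over the 4 libraries. The test code was tested on simulated data. Other alternatives were scaling to total counts, no filter, GC correction, a replicate block, pseudogene counts added to their parents, and leaving out each library. Replicates differed beyond sampling noise, with a chi-square per degree of freedom of 3.65 for the shCon pair and 7.77 for the shUBXN1 pair. Intervals and limits cover counting error only.

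The genes and lists were chosen with earlier results of these data known. All 39 genes are named, and of each list of other pathway genes, regulators and hypoxia-inducible genes the 3 largest rises and falls past the threshold, except 1 fall that is not reported here.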

Additional observations from a re-analysis of the deposited data

How the results depend on the processing

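Across 12 alternatives, 20 of the 36 genes tested kept their direction and their side of the threshold. The count of genes that rose was 14 to 17 under another tool, scaling, filter or correction, and of those that fell 10 to 12, against 15 and 11. Counts over all genes tested moved as well. Rises numbered 3851 with DESeq2 and 5324 with scaling to total counts, against 4727. Falls numbered 3969 with scaling to total counts and 5170 with the replicate block and GC correction, against 4751. At 2-fold, limma on log2(TPM + 1) gave 3 genes that rose in place of 5. The median over the genes, -0.018, became 0.066 with scaling to total counts, 0.040 with limma and -0.049 without a filter, and -0.031 to 0.028 with 1 library left out. Scaling to total counts moved the median of all genes from 0.016 to 0.10.

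In 7 genes, none of which passed the main test, the sign turned. With scaling to total counts ALDOA was 0.010, TPI1 0.013, GAPDH 0.041 and PDK1 0.034. With limma GAPDH was 0.015 and PDK1 0.0065. With GC correction PGAM1 was -0.030, PDK1 0.0026 and PGLS -0.022, and with the replicate block added PGAM1 was -0.030, PDK1 0.0029 and PGLS -0.023. With 1 library left out, PGAM1 ranged from -0.058 to 0.051, PDK1 from -0.15 to 0.039, GAPDH from -0.11 to 0.0058 and PKM from -0.0043 to 0.15. The cause was not tested.

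Replicates of equal number did not deviate together across genes (r = 0.039 across 16863 genes). With 2 libraries per group this cannot exclude a pairing that is weak or limited to some genes. The replicate block gave the same 15 and 11 calls, a median of -0.019 and UBXN1 at -2.03, and with GC correction 14 and 12. Of 18 other genes that the naming rule took, 14 kept their call under all alternatives. HK2 rested on 16 and 15 counts in shCon, and the part of depth in its lost calls was not tested.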
